A study of Mus musculus with 2 samples.

Results

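The natriuretic peptide system was examined in primary mouse neonatal ventricular cardiomyocytes (mNVCM) as 8 genes, namely the peptide genes *Nppa*, *Nppb* and *Nppc*, the receptor genes *Npr1*, *Npr2* and *Npr3*, the activating protease gene *Corin* and the degrading peptidase gene *Mme*. Members were every probe set whose platform annotation names exactly 1 gene and that gene is one of the 8, with symbols updated through the Entrez ID, which gave 11 of 45101 probe sets and 8 of 18193 genes. The cells came from hearts of 2-day-old C57BL6/J mice and had been cultured for 48 to 72 h. Both cultures were held for 1 h in medium with 0.5% serum. One was then pre-incubated for 3 h with hAFS-CMHypo, the concentrated medium of human amniotic fluid-derived stem cells kept in hypoxia, before 1 μM doxorubicin (Dox), an anthracycline used against cancer and toxic to the heart, and the other received 1 μM Dox without pre-incubation. The labels give 6 h of Dox for hAFS-CMHypo + Dox and 21 h for Dox, whereas the methods of the study give the same hours for both. Pre-incubation and any difference in hours cannot be told apart here. There was 1 Affymetrix array per condition and none without Dox among the samples used here, so the differences below could not be set against replicates, no error or test is attached to them, and their precision is limited by the single array on each side. The medium was compared only in the presence of Dox. Primary cultures of this kind also hold fibroblasts, vessel cells and macrophages, whose markers are given below.

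The heart is an endocrine organ through this system. ANP and BNP, encoded by *Nppa* and *Nppb*, are made by cardiomyocytes as prohormones and released when the wall is stretched, and re-expression of both genes in the ventricle is a classical sign of cardiomyocyte stress. Corin, a transmembrane serine protease of cardiomyocytes, cuts pro-ANP into active ANP. ANP and BNP act on NPR1, and CNP, encoded by *Nppc*, on NPR2; both receptors are guanylyl cyclases that make cGMP in the target cell. NPR3 has no cyclase domain and clears all 3 peptides, and neprilysin, encoded by *Mme*, degrades them.

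Expression is given as log2 RMA values, and a difference as the log2 ratio of hAFS-CMHypo + Dox over Dox. A log2 ratio of -1 is a halving, the 2-fold threshold of the methods. With no replicates, a ratio was set against the SD among the log2 ratios of a gene's own probe sets (the probe set SD), which was 0.22 over the 9010 genes read by several. It holds differences within these arrays and no variation between cultures. The median of all values was 5.10 and their 25th percentile 3.80; the deposited values carry no detection calls, so whether a value under the 25th percentile exceeds background is unknown. Levels are compared only within a probe set, since binding strength varies from one to another.

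Of the 8 genes, 7 were lower on the hAFS-CMHypo + Dox array, against 48.7% of all genes, and 1, *Nppc*, was higher. Of the 7, *Nppa* was slightly higher when taken relative to cardiomyocyte markers, and the direction of *Mme* differed between its probe sets. Their median log2 ratio was -0.42, against 0.0058 over all 18193 genes. *Corin* was the only one lower by 2-fold or more, where 0.214% of all genes were, and none was higher by 2-fold or more, where 0.506% of all genes were. By 1.5-fold or more, 3 were lower (*Corin*, *Mme* and *Npr2*) and none was higher, against 1.52% and 2.32% of all genes. By the probe set SD or more, 6 were lower and 1 was higher, against 14.4% and 16.4% of all genes, and the same shares stand behind the counts of the gene lists further on. *Nppa* was within that SD, and *Nppb* and *Npr3* fell within it when taken relative to cardiomyocyte markers. The higher array of 5 genes reached the median of all values: *Nppa*, *Nppb*, *Npr2*, *Corin* and *Mme*.

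**Figure D1:**
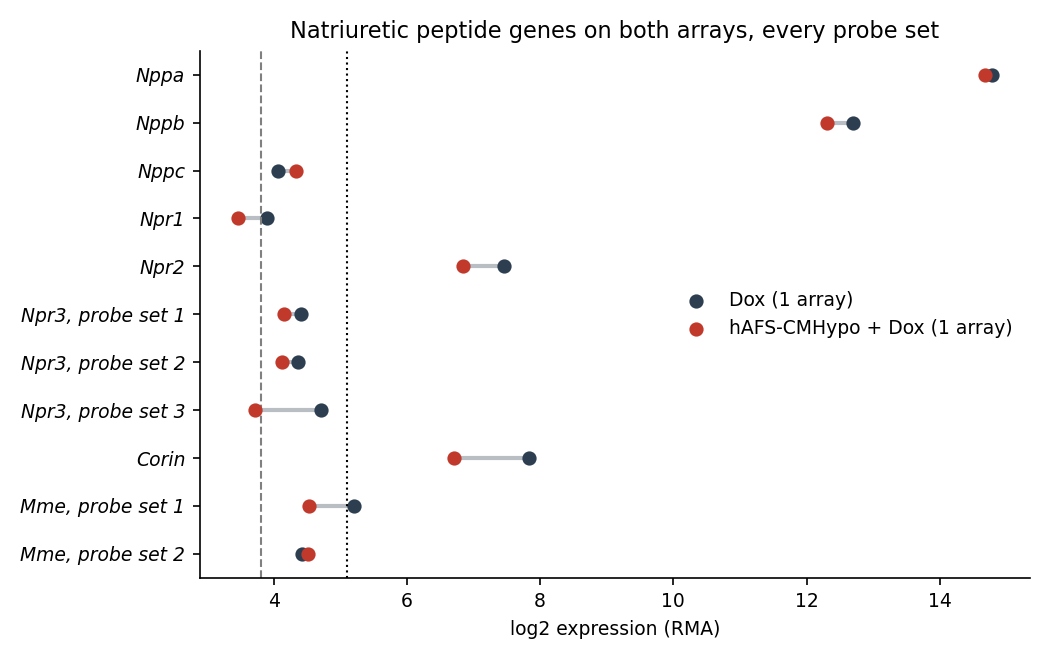
Log2 expression (RMA) at each of the 11 probe sets of the 8 genes, 1 row per probe set, with dark points for Dox and red points for hAFS-CMHypo + Dox, 1 array per condition. The 5.10 median of all values is dotted and their 25th percentile, 3.80, dashed; the red point lies to the left of the dark one in every row except *Nppc* and the second probe set of *Mme*, and levels of different rows are not comparable.

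*Corin* had the largest difference. Its single probe set (1419017_at) had a log2 value of 7.83 for Dox and 6.71 for hAFS-CMHypo + Dox. The log2 ratio was -1.12, so that the level with pre-incubation was 46.0% of that with Dox alone. Counted from the lowest log2 ratio, *Corin* ranked 27 of all 18193 genes. Among the 4510 probe sets of like mean level (10% of the array), the 5th and 95th percentiles of the log2 ratio were -0.45 and 0.46, and 0.200% had a lower ratio than *Corin*. No other probe set is named for the gene, so the value could not be set against another probe set of *Corin*.

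The peptide genes of the cardiomyocyte gave smaller values. *Nppa*, the ANP gene (1456062_at), had a log2 value of 14.78 for Dox and 14.68 for hAFS-CMHypo + Dox. The log2 ratio was -0.10, smaller than the probe set SD and turning to 0.06 relative to the cardiomyocyte markers. This probe set lay near the top of the scale, with 7 of higher mean level on the array, and whether differences are still resolved there was not tested. *Nppb*, the BNP gene (1450791_at), had 12.70 for Dox and 12.31 for hAFS-CMHypo + Dox. Its log2 ratio of -0.39 put the level with pre-incubation at 76.3% of that with Dox alone. Among the 4511 probe sets in the top 10% by mean level, a band that holds both genes, the 5th and 95th percentiles were -0.34 and 0.35. *Nppb* lay outside this range and *Nppa* within it. Most of the band was dimmer than both, with 674 probe sets of higher mean level than *Nppb*. The range is thus not one of probe sets as bright as these 2 genes.

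*Nppc*, the CNP gene, which in the vessel wall is mainly an endothelial product, was the single member with a positive log2 ratio. It had a log2 value of 4.06 for Dox and 4.34 for hAFS-CMHypo + Dox, both below the median of all values. The log2 ratio was 0.28, and the 95th percentile among probe sets of like mean level was 0.39.

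**Figure D2:**
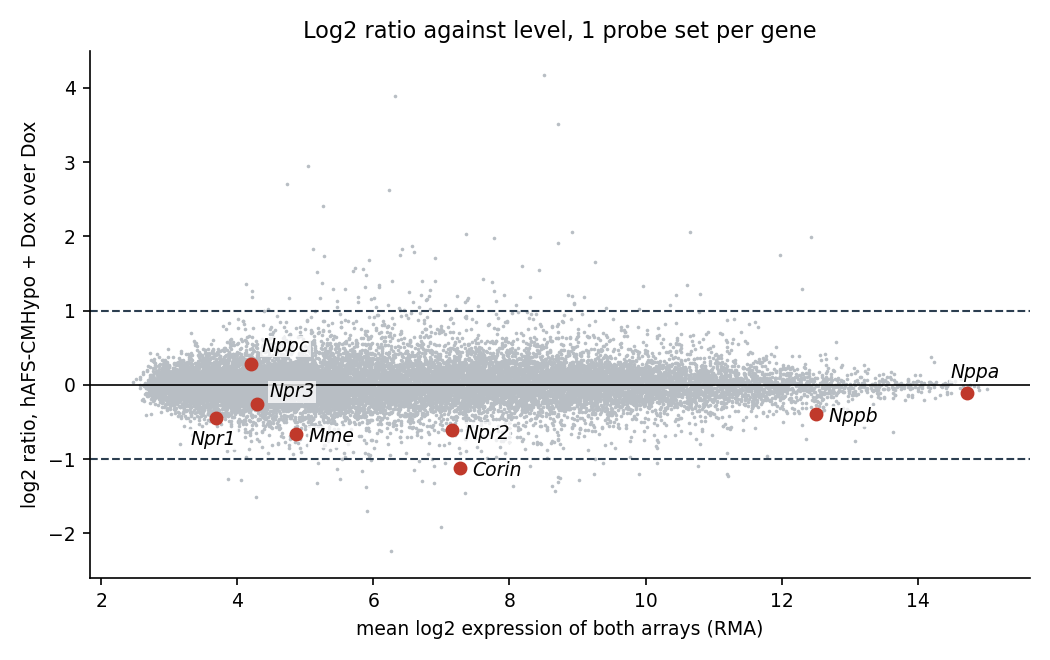
Log2 ratio (hAFS-CMHypo + Dox over Dox) of each of 18193 genes (grey points) against the mean log2 expression of both arrays, from the brightest probe set of each; the 8 natriuretic peptide genes are the red, named points and the dashed lines mark 2-fold. *Corin* lies below the lower dashed line, *Nppc* above 0, and *Nppa*, near the right end, close to 0.

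The receptor genes were lower on the hAFS-CMHypo + Dox array, from different levels. *Npr2*, the CNP receptor, had a log2 value of 7.46 for Dox and 6.85 for hAFS-CMHypo + Dox. The log2 ratio of -0.61 corresponds to 65.5% of the level with Dox alone, and it was the largest of the 3 receptors at the probe set used for each. *Npr1*, the ANP and BNP receptor, had 3.91 for Dox and 3.46 for hAFS-CMHypo + Dox. The log2 ratio was -0.44, but the second value lay under the 25th percentile, where background is not told from signal.

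*Npr3*, the clearance receptor, was read by 3 probe sets, and all 3 were lower on the hAFS-CMHypo + Dox array. The probe set with the highest mean had 4.41 for Dox and 4.16 for hAFS-CMHypo + Dox, a log2 ratio of -0.25. A further probe set gave 4.37 and 4.12, or -0.24. The third gave 4.71 and 3.73, or -0.98, with the lower value under the 25th percentile. The 3 probe sets thus gave 1 direction, and sizes further apart than the probe set SD.

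*Mme* was read by a pair of probe sets that did not give the same direction. At the brighter one (1455961_at) the log2 value was 5.20 for Dox and 4.54 for hAFS-CMHypo + Dox, a log2 ratio of -0.66. At the other (1422975_at) it was 4.43 and 4.52, a log2 ratio of 0.09, within the probe set SD. With the mean over both, *Mme* had a log2 ratio of -0.29 and was no longer lower by 1.5-fold. The count of 3 genes lower by 1.5-fold or more thus rests on the probe set chosen for *Mme*.

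The proximal promoters of *Nppa*, *Nppb* and *Corin*, the member genes of cardiomyocytes, are shown as background to these values. *Nppa* and *Nppb* lie next to each other in the same orientation on chromosome 4. Sequences are from RefSeq (GRCm38.p6), 5′ to 3′ on the gene's strand, and all 8 genes had at least 1 window in that table. Capitals mark matches, on either strand except for the last, to GATA, the binding letters of GATA factors; AAGTG, the core bound by NKX2-5; CATTCC, the MCAT element of TEAD factors; TGANTCA, the AP-1 site; CANNTG, the E-box; the serum response element; the NF-κB site; and TATAAA, the TATA box, searched on the gene's strand. For *Nppa* and *Corin* the 250 bases before the listed start are given, and for *Nppb* 30 bases around the MCAT element and 30 around the TATA box.
*Nppa*, chr4:148000472-148000721, plus strand: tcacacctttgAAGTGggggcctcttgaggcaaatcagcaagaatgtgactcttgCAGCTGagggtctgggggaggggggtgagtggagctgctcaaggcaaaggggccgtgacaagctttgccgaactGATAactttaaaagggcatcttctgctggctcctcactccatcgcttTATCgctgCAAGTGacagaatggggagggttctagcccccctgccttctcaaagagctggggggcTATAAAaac
*Nppb*, chr4:147985794-147985823, plus strand: aGGAATGCAGCTGATAaatcagaGATAacc
*Nppb*, chr4:147985859-147985888, plus strand: tcagccccagTATAAAaggcagaggcaccg
*Corin*, chr5:72504541-72504790, minus strand: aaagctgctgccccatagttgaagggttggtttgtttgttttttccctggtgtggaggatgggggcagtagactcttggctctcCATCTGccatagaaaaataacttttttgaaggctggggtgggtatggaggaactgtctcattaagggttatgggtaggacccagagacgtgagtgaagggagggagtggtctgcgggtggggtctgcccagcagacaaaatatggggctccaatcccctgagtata

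In the 250 bases before the start, *Nppa* and *Nppb* each held 2 matches to GATA, which 53.6% of all 32851 windows of this length hold at least once. *Nppa* held 2 matches to AAGTG, found in 40.7% of windows, of which the one 65 bases before the start overlaps an E-box. *Nppb* held 1 match to CATTCC, found in 12.6% of windows, and it directly precedes an E-box that overlaps a GATA match. TATAAA was present in both, against 7.6% of windows, and began 9 bases before the listed start in *Nppa* and 31 in *Nppb*. *Corin* held 1 E-box, found in 66.2% of windows, and no match to the other letters, which says only that they are not in this window. None of these 3 windows held an AP-1 match, against 6.7% of all windows. None held an exact match to the serum response element (CCWWWWWWGG, W being A or T) or the NF-κB site, against 1.5% and 7.3%. Near matches were not counted, and ctttaaaagg in the *Nppa* sequence differs from the letters of the serum response element by 1 base. The matches counted are of letters, not shown sites of binding.

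Transcription factors known to act on *Nppa* and *Nppb* showed values on both sides of 0. Of 28 measured regulators none was 2-fold higher or lower; 5 were higher and 7 lower by the probe set SD or more, and the median log2 ratio was -0.09. *Myocd*, myocardin, a cofactor of serum response factor, had 7.82 against 8.42 for Dox, a log2 ratio of -0.61, and both its probe sets were lower. *Jarid2*, a repressor that is part of a chromatin-modifying complex, had -0.52 (-0.09 at the nearest to 0 of its 3 probe sets), and *Tbx20*, a cardiac T-box factor, had -0.49, with all 3 of its probe sets lower. *Nfatc1*, a calcineurin-dependent factor, had 0.50, with its 5 probe sets down to -0.16. The GATA, NKX2-5 and TEAD factors of the list were chosen after their values were seen: *Gata4* had -0.11, *Nkx2-5* -0.17 and *Tead1* -0.19, each within the probe set SD, and *Gata6* had -0.23, just past it, with its 3 probe sets from -0.32 to 0.22.

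Other genes of the fetal and hypertrophic programme, with which *Nppa* and *Nppb* are commonly read, had log2 ratios from -0.72 to 0.55. Of 20 measured genes none was 2-fold higher or lower; 2 were higher and 6 lower by the probe set SD or more, and the median was -0.11. *Fhl2*, a LIM protein of the sarcomere, had 12.00 against 12.73 for Dox, a log2 ratio of -0.72. *Myh7b*, a slow myosin heavy chain, had -0.65. *Il6st*, the shared receptor subunit of the IL-6 family, had 0.55, with all 4 of its probe sets higher. *Kcnip2*, a subunit of a potassium channel, had -0.39, with probe sets from -1.08 to 0.19. The markers most often measured beside *Nppa*, chosen after their values were seen, were *Myh7*, the fetal myosin heavy chain, with -0.27, *Acta1*, skeletal actin, with -0.22, and *Ankrd1*, a stretch-responsive ankyrin protein, with -0.13.

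Downstream of the receptors, the genes of the cGMP pathway had values on both sides of 0. Of 22 measured genes none was 2-fold higher or lower; 5 were higher and 4 lower by the probe set SD or more, and the median log2 ratio was -0.01. The largest values were those of enzymes that make or break down cGMP. *Pde5a*, a phosphodiesterase specific for cGMP, had 6.52 against 5.58 for Dox, a log2 ratio of 0.94, and its 3 probe sets ranged from 0.18 to 0.94. *Pde1c*, a calmodulin-dependent phosphodiesterase, had 5.09 against 6.07, a log2 ratio of -0.98, with its 6 probe sets up to 0.04. *Pde1a*, of the same family, had 0.68 and -0.06 at its other probe set. *Gucy1a1*, a subunit of the soluble guanylyl cyclase that nitric oxide stimulates, had 8.34 against 9.14, a log2 ratio of -0.80, and its 3 probe sets ranged from -1.18 to -0.80. *Prkg1*, the cGMP-dependent protein kinase, named after its value was seen, had -0.03 (0.45 at its other probe set).

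Proteases that act beside corin and neprilysin had values nearer 0 than *Corin*. Of 12 measured convertases and other peptide proteases none was 2-fold higher or lower; 2 were higher and 2 lower by the probe set SD or more, and the median was 0.0014. *Furin*, which cuts pro-BNP, had 10.32 against 10.43 for Dox, a log2 ratio of -0.11. *Pcsk6*, the convertase that activates corin, was chosen after its value was seen and had -0.03. *Pcsk5*, a related convertase, had -0.65, with its 5 probe sets up to 0.52. *Ide*, the insulin-degrading enzyme, which also cuts natriuretic peptides, had -0.28, with all 5 of its probe sets below 0, and *Ctsb*, a lysosomal cathepsin, had 0.15 (-0.08 to 0.62 over its 5 probe sets). Of the 6 other genes of the neprilysin family none was 2-fold higher or lower; 2 were higher and none lower by the probe set SD or more, with a median of 0.02. *Ece1*, an endothelin-converting enzyme, had 0.42 (down to -0.21 among its 3 probe sets), *Ece2* had 0.27 (-0.04 at its other probe set) and *Ecel1* had -0.15.

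Among other cardiac and vasoactive peptide hormones, 19 measured genes had a median log2 ratio of 0.01, none was 2-fold higher or lower, and 4 were higher and 5 lower by the probe set SD or more. *Penk*, proenkephalin, which neonatal heart cells also make, had 6.95 against 6.05 for Dox, a log2 ratio of 0.90. *Edn3*, endothelin 3, had -0.42 (up to 0.10 among its 4 probe sets), *Adm*, the vasodilator adrenomedullin, had -0.35, with both probe sets lower, and *Edn1*, endothelin 1, had 0.27.

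**Figure D3:**
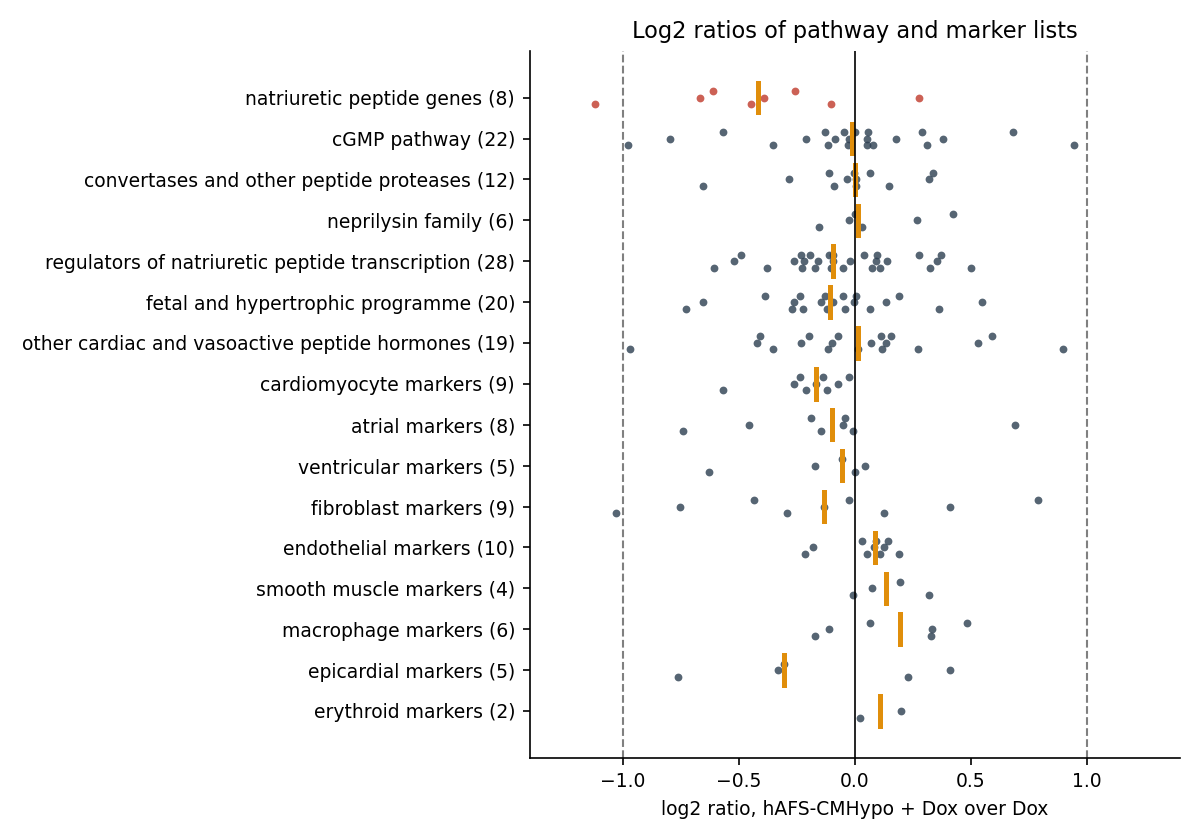
Log2 ratio (hAFS-CMHypo + Dox over Dox) of each gene, 1 point per gene from its brightest probe set, for the 8 natriuretic peptide genes (red) and for the pathway and marker lists (dark), with the number of measured genes in brackets; points are spread vertically for legibility. Orange bars are medians, -0.42 for the natriuretic peptide genes and -0.17 for the cardiomyocyte markers, and dashed lines mark 2-fold.

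The cell types of the cultures were read beside these values, since in bulk RNA fewer cells of a type and less RNA per cell cannot be told apart. All 9 cardiomyocyte markers were above the median of all values on both arrays, and all 9 were lower on the hAFS-CMHypo + Dox array, 3 of them by the probe set SD or more. Their log2 ratios ran from -0.57 for *Pln*, phospholamban, through -0.26 for *Mybpc3*, a myosin-binding protein, -0.23 for *Ttn*, titin (-0.94 to 0.01 over its 6 probe sets), and -0.21 for *Ryr2*, the calcium release channel, to -0.02 for *Tnnt2*, cardiac troponin T, with a median of -0.17 and a mean log2 value of 13.54 against 13.74 for Dox. The log2 ratio of *Corin* was below that of each of the 9, of which *Pln* reached -0.87 and *Ttn* -0.94 at other probe sets. The markers lay at high levels, and whether differences are still resolved there was not tested. Taken relative to the median of the 9 markers, a scale added after the values were seen, *Corin* had -0.95 and no longer reached 2-fold. On this scale *Nppb* had -0.22 and *Npr3* -0.09, both now within the probe set SD, and *Nppa* turned to 0.06. The part of the cardiomyocyte markers in these values was not tested further.

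Of the 8 atrial markers 7, and all 5 ventricular ones, were at or above the median of all values on both arrays. Each list leaned slightly below 0. Of 8 atrial markers 1 was higher and 2 lower by the probe set SD or more, with a median of -0.10. The growth factor gene *Bmp10* had -0.74, *Nr2f2* and *Nr2f1*, nuclear receptors of the atrium, had -0.45 (up to 0.18 over 6 probe sets) and -0.19, whereas *Gja5*, a gap junction protein, had 0.69. The atrial light chains *Myl7* and *Myl4*, named after their values were seen, had -0.05 and -0.04, at log2 values of 14.64 and 14.08 for Dox in cells labelled ventricular. Of 5 ventricular markers 1 was lower by that SD, *Kcne1*, a potassium channel subunit, with -0.63 (-1.03 at its other probe set), and the median was -0.05. *Myl2*, the ventricular light chain, had -0.05, and the factors *Irx4* and *Hey2* had -0.17 and 0.05. The atrial marker *Kcna5* was under the 25th percentile of all values on both arrays.

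Markers of other cell types gave the following values. Of 9 fibroblast markers 2 were higher and 4 lower by the probe set SD or more, with a median of -0.13; *Tcf21*, a transcription factor of cardiac fibroblasts, had -1.03 (0.18 at its other probe set), *Ddr2*, a collagen receptor, had -0.75 (-0.05 at its other), *Postn*, periostin, had -0.43, and *Pdgfra*, a growth factor receptor, had 0.79 (down to -0.05 among its 3). At the probe set used for each, all 10 endothelial markers were within that SD, with a median of 0.09. The vessel receptors *Tek*, *Kdr* and *Tie1* had -0.22, -0.18 and 0.19, and *Cdh5*, the endothelial cadherin, had 0.14. *Egfl7* and *Flt1*, named after their values were seen, had other probe sets beyond that SD, down to -0.59 and up to 0.55, among 4 each. Smooth muscle and macrophage markers had medians of 0.13 over 4 genes and 0.20 over 6, with 1 and 3 of them higher and none lower by that SD. *Cnn1*, *Tagln* and *Acta2*, contractile genes of smooth muscle, had 0.32, 0.20 and -0.01. Of the macrophage genes, *Ptprc*, *Csf1r* and *Adgre1* had 0.48, 0.33 and 0.33, the first and second with a probe set at -0.09 and -0.14, and *C1qa* had -0.17. Of 5 epicardial markers 2 were higher and 3 lower, with a median of -0.30: *Tbx18* had -0.76, *Msln* 0.41, *Upk3b* -0.33 (up to 0.04) and *Upk1b* -0.30 (up to 1.01 among its 4 probe sets). The 2 measured erythroid markers, with log2 ratios up to 0.20, were below the median of all values on both arrays. The part of these cell types in the values of the 8 genes was not tested.

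**Figure D4:**
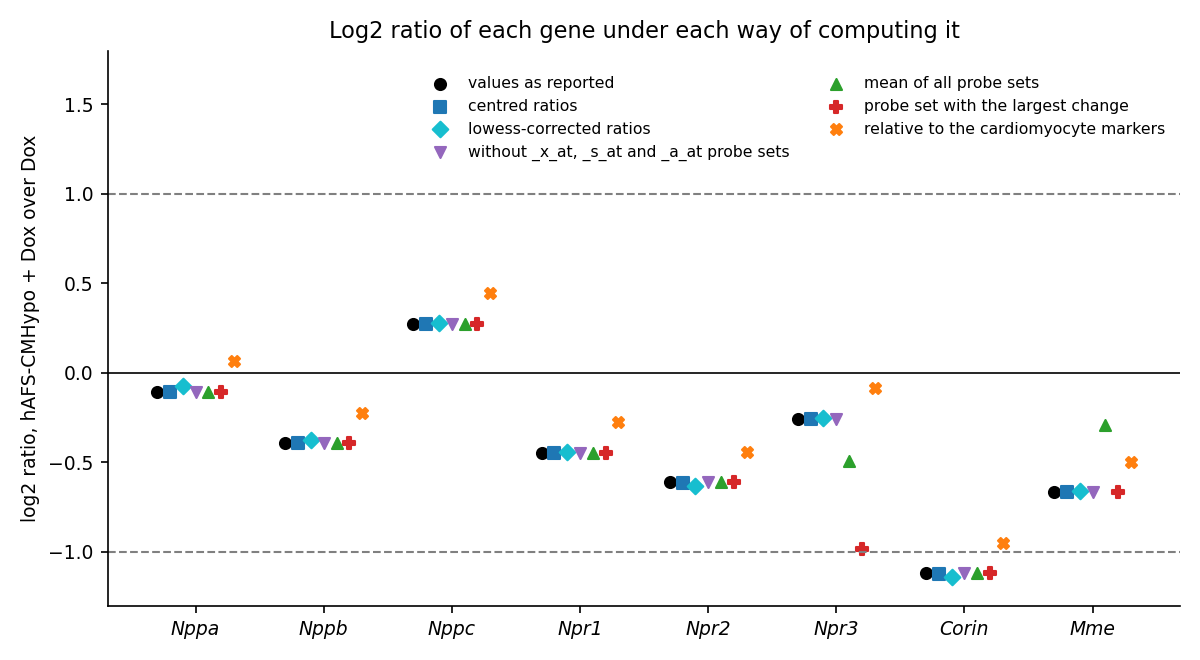
Log2 ratio (hAFS-CMHypo + Dox over Dox) of each of the 8 genes under each way of computing it; each symbol is 1 value from the same 2 arrays and dashed lines mark 2-fold. Values taken relative to the cardiomyocyte markers lie above the values as reported for every gene. The other symbols nearly coincide for most genes and spread for *Npr3* (-0.98 to -0.25) and *Mme* (-0.67 to -0.29). *Corin* lies below the lower dashed line in all but the values taken relative to the cardiomyocyte markers (-0.95).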

How the data were processed

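RNA of mNVCM was hybridised to 1 Affymetrix mouse expression array per condition. The authors deposited log2 values made by RMA with quantile normalization, and the submitters' processing notes name RMA. The software version was not given in the sources used here. Values ran from 2.37 to 15.05, which is why they were read as log2. The values were used as deposited. A gene read by several probe sets was represented by the one of highest mean over both arrays. The annotation named 1 gene for 34945 probe sets, of which 34754 were matched by Entrez ID to RefSeq genes of GRCm38.p6. No coordinates of probe sets are given, because their annotation names no build.

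With a single array on each side no test was made, and lists are described by counts and medians. The members and the gene lists were chosen with earlier results of these data known. The genes named are all 8 members and up to 4 of each list. Those had the largest absolute log2 ratios among genes whose higher array reached the median of all values. Others are said to be chosen after their values were seen, as was the motif TATAAA. *Tnnt2*, named as the end of the marker range, and *Kcna5* were also chosen in this way. Other probe sets of a named gene are given where they had opposite directions and lay further apart than the probe set SD, or lay more than 2-fold apart. Smaller spreads in 1 direction are not always given. As alternatives, the threshold was set to 1.5-fold or 3-fold, dim genes were left out at the 25th percentile or the median, ratios were centred or lowess-corrected on mean level (span 0.3), less specific probe set types were dropped, and genes took the average over their probe sets or the probe set of largest change. The counting step was run on simulated data with planted 3-fold changes, which checks the code and not the precision of the arrays. Computation was in Python 3.11.15 (pandas 2.3.3, numpy 2.4.6, lowess from statsmodels 0.14.6), with plots by matplotlib 3.10.9.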

Additional observations from a re-analysis of the deposited data

How the results depend on the processing

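Of 76 values recomputed under the alternatives, 70 stayed within the probe set SD (or within 1.5 times a count) and 6 did not. Much of this was fixed in advance. For the 6 genes with 1 probe set, the settings that choose or average probe sets return the same value. Centring and the scale relative to the cardiomyocyte markers shift every log2 ratio by less than the probe set SD. *Corin*, the only gene past 2-fold and read by 1 probe set, ran from -1.14 to -0.95. The number of genes lower by 2-fold or more was 1. It was 3 with a threshold of 1.5-fold, 0 with 3-fold, and 0 relative to the cardiomyocyte markers, an alternative chosen after seeing the data, by which every log2 ratio is shifted by the same amount. With the mean of all probe sets as a gene's value, the log2 ratio was -0.49 for *Npr3* and -0.29 for *Mme*. With the probe set of the largest change it was -0.98 for *Npr3*. These settings differ from the values reported only in the probe set used. The median log2 ratio of the 8 genes ran from -0.61, with the 5 genes left by a filter at the median of all values, to -0.41 with lowess correction, and was -0.25 relative to the cardiomyocyte markers. No more than 1 probe set is named for 6 of the 8 genes. With 1 array per condition, variation between cultures cannot be estimated, and the values of *Nppc*, *Npr1* and *Npr3* lay below the median of all values on both arrays.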

Other observations

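*Nppb* and *Nppa* are neighbours on chromosome 4 in RefSeq's gene order, so nearby protein-coding genes with a value on the arrays, a choice made after the values of both were seen, were read as well. On the side of *Nppb*, *2510039O18Rik*, *Plod1*, a collagen-modifying hydroxylase, and *Mfn2*, a mitochondrial fusion protein, had log2 ratios of -0.19, -0.20 and -0.20, each within the probe set SD. On the side of *Nppa*, *Clcn6*, a chloride transporter of endosomes, and *Agtrap*, which binds the angiotensin II receptor, had 0.11 and 0.20, also within it. Of these genes and the peptide pair, *Nppb*, at -0.39, was the only one beyond that SD. Relative to the cardiomyocyte markers *Nppb* had -0.22, within that SD, and the neighbours were not read on that scale.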
